A study of Mus musculus with 7 samples.

Results

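Matrix metalloproteases (MMPs), ADAMTS proteases, ADAMTS-like proteins and the tissue inhibitors of metalloproteases (TIMPs) were examined in livers of mice with high or low bile acids. The genes were selected by symbol, as every row named Mmp, Adamts or Adamtsl with a number or Timp1 to Timp4, and this gave 51 of the 37620 genes in the table. They comprised 23 MMP, 19 ADAMTS, 5 ADAMTS-like and 4 TIMP genes. Bulk RNA sequencing had been done on flash-frozen liver of C57BL/6 mice. All animals had eaten a Western diet for 30 weeks, and the labels name no transgene, no drug and no animals on another diet. Mice with high total bile acids (H-TBA) gave 4 libraries and mice with low total bile acids (L-TBA) gave 3. The labels give neither age nor sex, and whether every library is from its own mouse is not said, so each p-value rests on the spread among these 7 libraries, which may be technical.

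MMPs are zinc-dependent enzymes that are secreted or anchored to the cell membrane as inactive precursors and that cut collagens, laminins, elastin and many non-matrix proteins. The ADAMTS enzymes are secreted relatives that cut proteoglycans, trim procollagen and process von Willebrand factor, and the ADAMTS-like proteins share their accessory domains but have no protease domain. TIMPs bind the active site of these enzymes, and TIMP2 also takes part in the activation of pro-MMP2 at the cell surface by the membrane-type enzyme MMP14. In liver these genes come from different cells: MMP7 from bile duct epithelium, MMP2 and most ADAMTS genes from stellate cells and fibroblasts, and MMP12 from macrophages.

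The genes for matrilysin (Mmp7), macrophage elastase (Mmp12) and collagenase 3 (Mmp13) lie in one gene cluster. The bases before their transcription starts are shown because they share a motif, while Mmp7 was higher and Mmp12 and Mmp13 were lower in H-TBA. The sequences are the 100 bases upstream of the start on the gene's own strand, from RefSeq on GRCm38.p6, which is not the build named in the submitters' processing notes. Capitals mark the letters TGANTCA, the binding motif of the transcription factor AP-1, and the TATA box letters TATAAA. Where the table listed 2 starts for a gene, as for Mmp7 and Mmp12, the start with the AP-1 letters is printed.
Mmp7: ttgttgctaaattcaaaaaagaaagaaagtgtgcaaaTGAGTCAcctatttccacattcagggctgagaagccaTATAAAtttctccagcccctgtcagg
Mmp12: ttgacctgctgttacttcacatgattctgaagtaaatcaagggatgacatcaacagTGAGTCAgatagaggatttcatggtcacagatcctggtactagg
Mmp13: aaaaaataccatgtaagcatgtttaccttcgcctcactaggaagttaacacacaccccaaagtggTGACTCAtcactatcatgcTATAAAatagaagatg

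The Mmp7 sequence is chr9:7691990-7692089, the Mmp12 sequence chr9:7347274-7347373 and the Mmp13 sequence chr9:7272414-7272513, all on the plus strand. Counted back from the transcription start, the AP-1 letters begin at -63 in Mmp7, at -44 in Mmp12 and at -35 in Mmp13. The TATA letters begin at -26 in Mmp7 and at -16 in Mmp13. The motifs were searched on both strands of the 250 bases before each start. For 36 of the 51 genes the table held a start, 39 starts in all. AP-1 letters were found at 8 of these 39 starts (20.5%) and at 6.75% of all 32851 starts in the table. All 8 belonged to the 10 neighbouring MMP genes on chromosome 9, of which Mmp8 and Mmp27 had none, and 0 of the 26 genes outside the cluster with a listed start held them. A match of letters does not show that the factor binds there.

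A second pair of sequences belongs to the inhibitors Timp2 and Timp3, which rose together by nearly the same amount. Both lack the AP-1 and TATA letters in this stretch, and capitals mark the GC box letters GGGCGG on either strand, which begin at -37 in Timp2 and at -15 in Timp3.
Timp2: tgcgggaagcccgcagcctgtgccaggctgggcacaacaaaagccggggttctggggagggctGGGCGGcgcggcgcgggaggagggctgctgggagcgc
Timp3: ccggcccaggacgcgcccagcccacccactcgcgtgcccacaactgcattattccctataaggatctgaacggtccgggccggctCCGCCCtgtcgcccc

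The Timp2 sequence is chr11:118355412-118355511 on the minus strand and the Timp3 sequence chr10:86300312-86300411 on the plus strand, again RefSeq on GRCm38.p6. GC box letters were found at 51.3% of the 39 starts of the group and at 32.7% of all starts. Timp1, which did not rise with Timp2 and Timp3, also held GC box letters, at -8, and had no AP-1 or TATA letters. Timp4 held none of these letters. The letters therefore do not set apart the TIMP genes that rose.

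Of the 51 genes, 45 had at least 1 count and 33 passed the filter on low counts. By edgeR's quasi-likelihood test, adjusted over all 15249 genes tested, 15 of the 33 were higher in H-TBA, 3 were lower and 15 were not called. Across all tested genes 23.9% were called, 13.1% as higher and 10.7% as lower, while within the group 45.5% were called higher and 9.09% lower. The median log2 fold change was 0.46 over the 33 genes and 0.00 over all tested genes. No overlap between H-TBA and L-TBA libraries was seen in 21 of the 33 (63.6%) and in 33.5% of all tested genes. These shares describe genes that passed the filter, which favours genes high in at least 1 group, and are no test of the group. In the plot of log2 fold changes the inhibitors, the ADAMTS enzymes and the ADAMTS-like genes lie mostly to the right, while the MMPs spread to both sides.

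**Figure D1:**
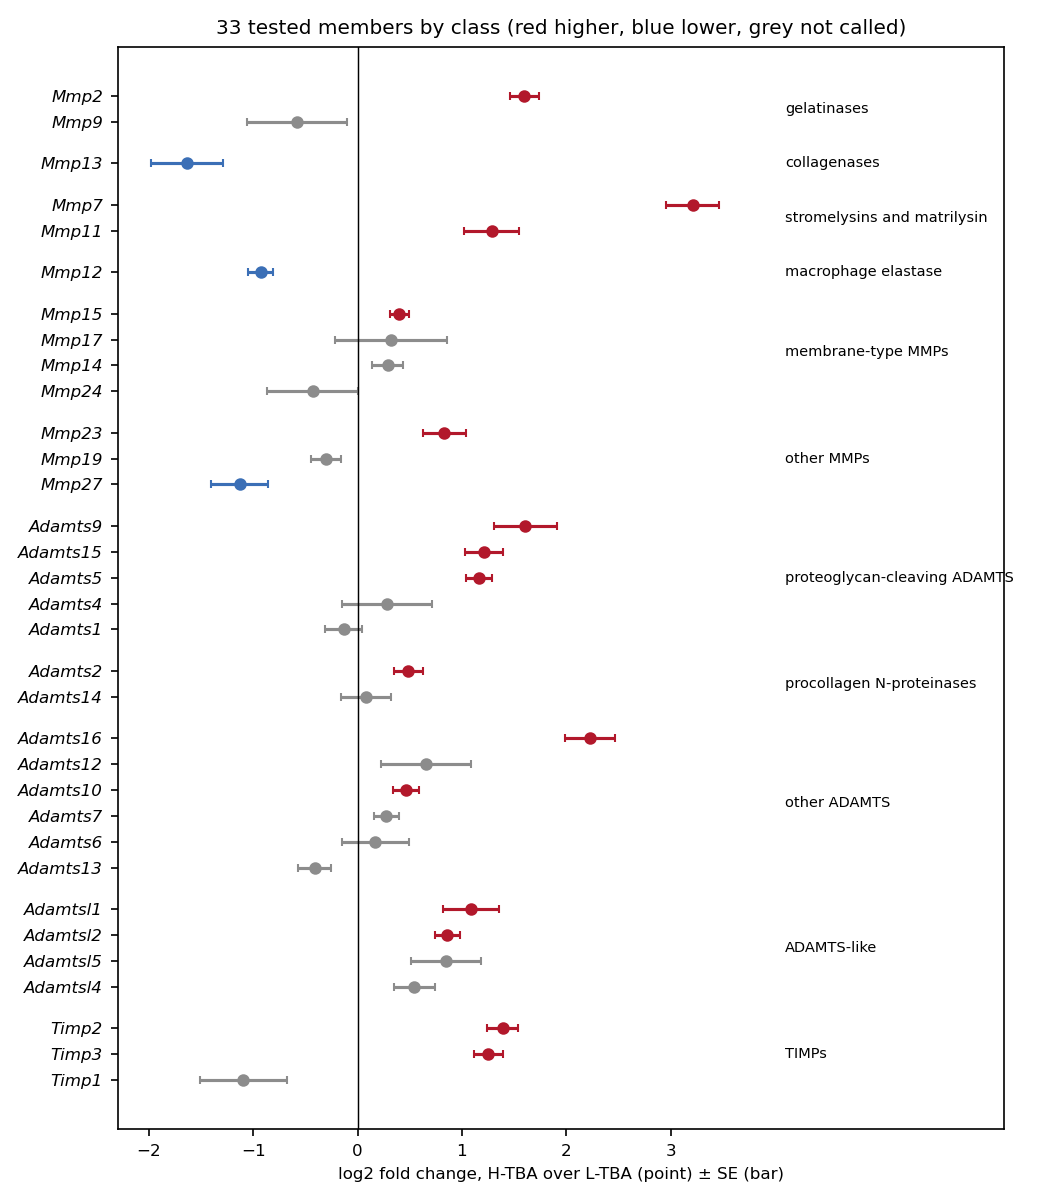
Log2 fold change of H-TBA over L-TBA (x axis, point) with its standard error (bar) for the 33 tested genes, grouped by class; red genes were called higher, blue lower and grey not called by edgeR at an adjusted p of 0.05. The values run from -1.64 for Mmp13 to 3.21 for Mmp7, and the 3 genes called lower are all MMPs.

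On the first principal component of all tested genes, which held 64.7% of the variance, H-TBA 1 lay at -10.7, the other H-TBA libraries between -43.5 and -34.6, and the L-TBA libraries between 36.8 and 45.2. Total counts ran from 9996990 to 12152613 per library. Among the 15 genes called higher, H-TBA 1 was the lowest H-TBA library in 9, and L-TBA 1 was the highest L-TBA library in 14. On leaving out H-TBA 1 the group again had 15 higher and 3 lower genes, and on leaving out L-TBA 1 it had 15 and 2. Levels are given as CPM, counts scaled to a common library size by the TMM method. Hepatocyte markers were abundant in every library: 8 of them summed to between 62698 and 73014 CPM in L-TBA and between 55043 and 64160 CPM in H-TBA. In bulk tissue, more cells of a type and more RNA per cell cannot be told apart, and this holds for each result below.

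Matrilysin, the epithelial MMP, showed the largest change of the group. Mmp7 (ENSMUSG00000018623) encodes a small secreted protease that lacks the hemopexin domain and is made by bile duct epithelium. It stood at 8.81, 6.55 and 6.71 CPM in L-TBA 1 to 3 and at 40.7, 67.5, 82.7 and 82.2 CPM in H-TBA 1 to 4. The lowest H-TBA library, H-TBA 1, was still far above every L-TBA library. The mean rose from 7.36 ± 1.26 (SD, n = 3) to 68.3 ± 19.7 CPM (SD, n = 4), a log2 fold change of 3.21 ± 0.25 (SE; adjusted p = 6.12e-05). Its log2 fold change ran from 3.05 to 3.39 over the alternatives.

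**Figure D2:**
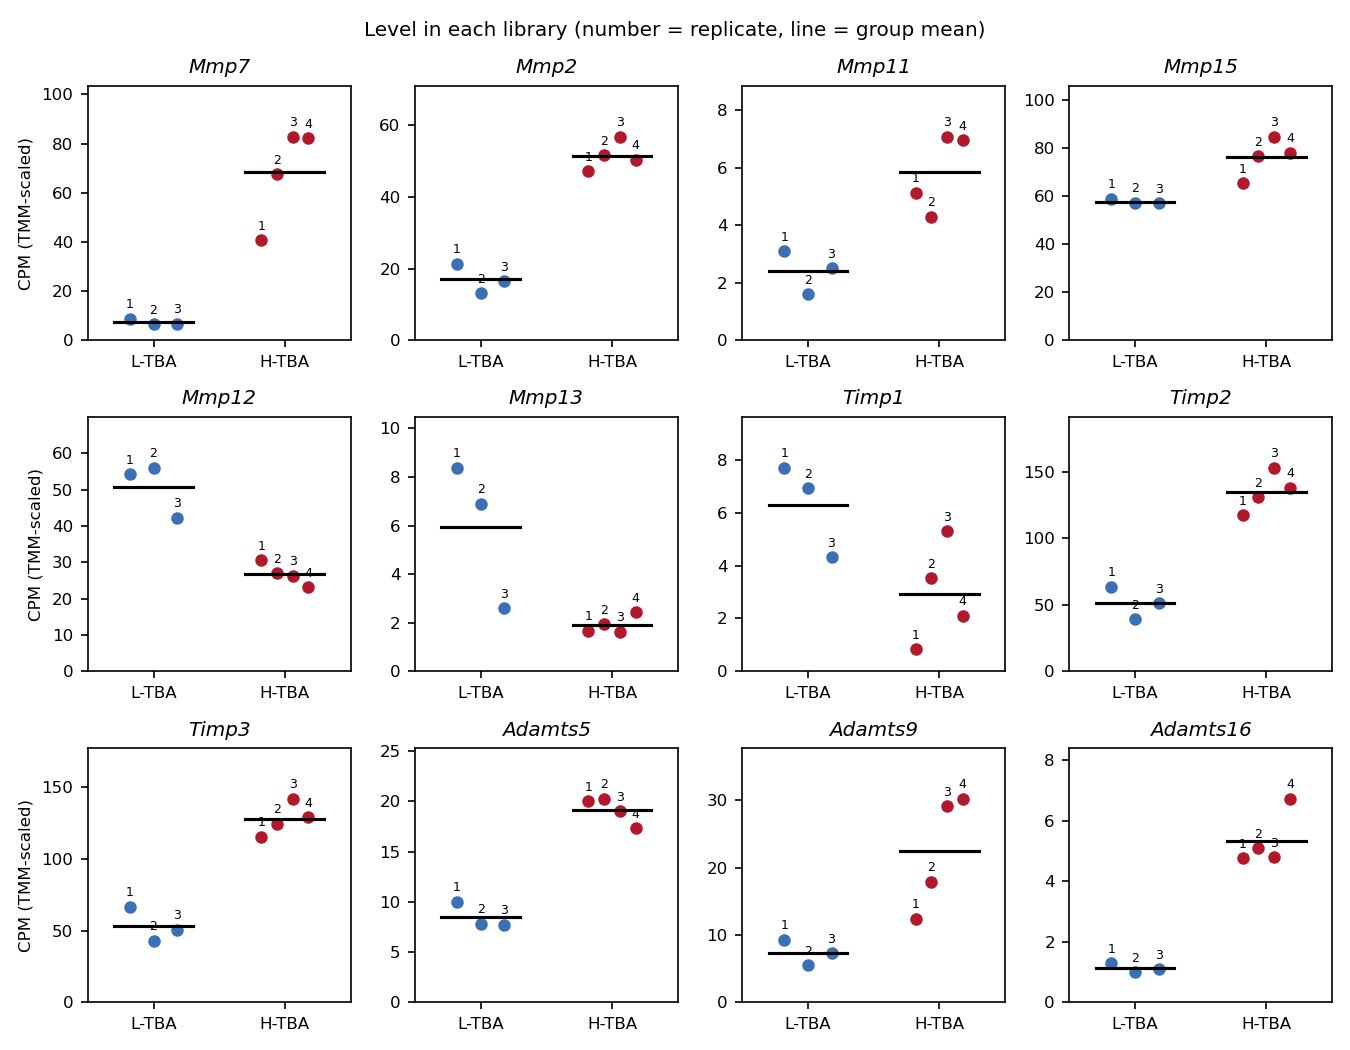
Level in CPM (y axis, starting at 0) of 12 genes in each L-TBA (blue) and H-TBA (red) library, with the replicate number beside each point and a line at the group mean. Mmp7, Mmp2, Timp2 and Timp3 separate the groups upward, Mmp12 and Mmp13 downward, and Timp1 overlaps.

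Of the gelatinases, 1 of 2 was called. Mmp2 (ENSMUSG00000031740), the gelatinase of mesenchymal cells, which degrades type IV collagen and denatured collagens, was at 21.3, 13.1 and 16.5 CPM in L-TBA and at 47.3, 51.7, 56.8 and 50.4 CPM in H-TBA. The groups were well apart and the H-TBA libraries were close to each other. Its log2 fold change was 1.60 ± 0.14 (adjusted p = 9.55e-05), a 3.03-fold rise. Mmp9, the gelatinase of neutrophils and other leukocytes, stayed between 0.187 and 1.21 CPM in all libraries, with a log2 fold change of -0.58 ± 0.48 (adjusted p = 0.422) and overlapping groups.

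Macrophage elastase fell. Mmp12 (ENSMUSG00000049723), which cleaves elastin and is secreted by macrophages, was at 54.2, 56.0 and 42.3 CPM in L-TBA and at 30.6, 27.0, 26.3 and 23.1 CPM in H-TBA. Every H-TBA library lay below the lowest L-TBA library, L-TBA 3. The log2 fold change was -0.93 ± 0.12 (adjusted p = 0.00049).

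Collagenase 3, the main interstitial collagenase of the mouse, fell as well. Mmp13 (ENSMUSG00000050578) was at 8.38, 6.91 and 2.60 CPM in L-TBA and at 1.68, 1.95, 1.63 and 2.43 CPM in H-TBA. L-TBA 3 was only just above H-TBA 4, so the gap between the groups was narrow. The log2 fold change was -1.64 ± 0.35 (adjusted p = 0.00606), and it was -1.99 on leaving out L-TBA 3 and -1.31 on leaving out L-TBA 1. The other collagenase genes were at or near 0: Mmp1a and Mmp1b had 0 counts, and Mmp8, the neutrophil collagenase, had 8 counts in H-TBA and 7 in L-TBA.

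Mmp27, a little-studied member of the stromelysin branch, was the third gene called lower. It went from 3.44 ± 0.386 CPM (SD, n = 3) to 1.55 ± 0.522 CPM (SD, n = 4), with no overlap, at -1.13 ± 0.27 on the log2 scale (adjusted p = 0.0111). This call was lost on leaving out L-TBA 1 (adjusted p = 0.0524; over the alternatives it spanned 0.00521 to 0.0524). Mmp11, stromelysin 3, which is activated inside the cell by furin and is typical of fibroblasts, rose from 3.11, 1.62 and 2.50 CPM in L-TBA to 5.14, 4.30, 7.07 and 6.96 CPM in H-TBA (log2 fold change 1.29 ± 0.26, adjusted p = 0.00521). In the GENCODE M21 models 5.58% of the Mmp11 exon bases overlap Chchd10 on the other strand. Chchd10 had 21176 counts in H-TBA and 17790 in L-TBA, against 272 and 79 for Mmp11. The strand setting was not given, so Mmp11 counts may include reads of Chchd10.

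Mmp7, Mmp12, Mmp13 and Mmp27 belong to a run of 10 MMP genes with no other protein-coding gene between them in the RefSeq annotation of GRCm38.p6. The order is Mmp13, Mmp12, Mmp1b, Mmp3, Mmp1a, Mmp10, Mmp8, Mmp27, Mmp20 and Mmp7. At one end Mmp13 and Mmp12 fell, and at the other end Mmp7 rose. Between them Mmp1b, Mmp1a, Mmp10 and Mmp20 had 0 counts in all 7 libraries, although each holds the AP-1 letters before its start. For a single library the limit that a count of 0 allows is 3 counts, for counting error only. Mmp3, stromelysin 1, had 16 counts in H-TBA, 10 of them in H-TBA 3, and 2 in L-TBA, both from L-TBA 3.

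**Figure D3:**
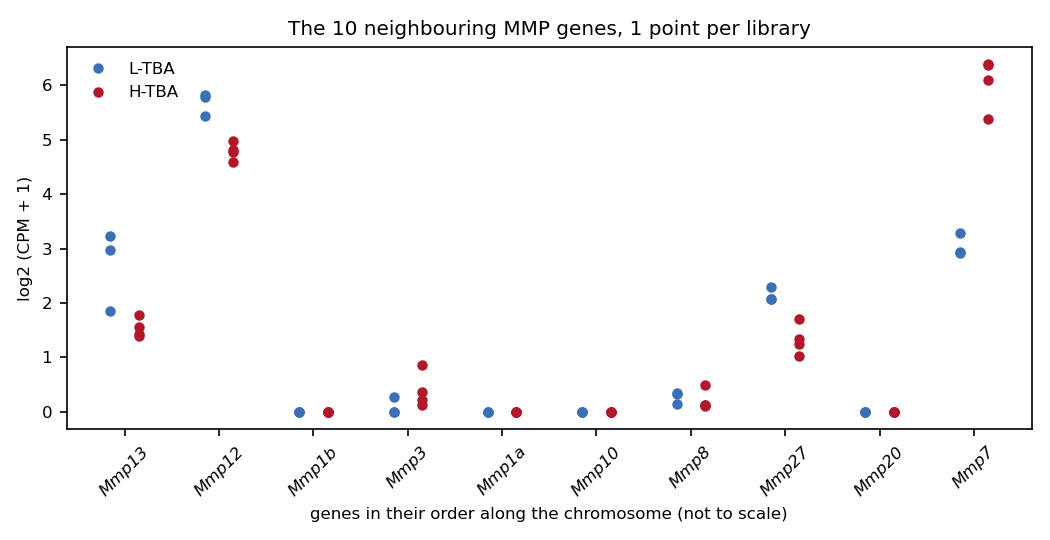
Level as log2 (CPM + 1) (y axis) of the 10 neighbouring MMP genes in their order along chromosome 9, not to scale, with 1 point per L-TBA (blue) or H-TBA (red) library. Mmp13, Mmp12 and Mmp27 are lower in H-TBA, Mmp7 is higher, and 4 genes are at 0 in all libraries.

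Of 4 tested membrane-type MMPs 1 rose and 0 fell, a share near the 23.9% called over all tested genes. Mmp15, which encodes MT2-MMP, was at 58.9, 57.3 and 57.0 CPM in L-TBA and at 65.5, 76.7, 84.7 and 78.0 CPM in H-TBA. The L-TBA libraries were nearly equal and all H-TBA libraries lay above them. It rose by 0.40 ± 0.09 on the log2 scale (adjusted p = 0.00932). Mmp14, which encodes MT1-MMP, a collagenase and the activator of pro-MMP2, was at 63.7, 88.9 and 67.9 CPM in L-TBA and at 75.6, 76.9, 109 and 98.1 CPM in H-TBA. Its groups overlapped, and it did not pass at 0.29 ± 0.15 (adjusted p = 0.189). Mmp17 and Mmp24, membrane-type genes at mean levels under 1 CPM, had log2 fold changes of 0.32 ± 0.53 and -0.43 ± 0.44 and were not called.

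Of the remaining MMPs, Mmp23, a membrane-anchored protease without the usual hemopexin domain, rose from 5.18 ± 1.21 CPM (SD, n = 3) to 9.24 ± 1.84 CPM (SD, n = 4), at 0.83 ± 0.21 on the log2 scale (adjusted p = 0.0132). Its call was lost on leaving out L-TBA 2 or 3 (adjusted p = 0.0541 and 0.0538; all alternatives spanned 0.00299 to 0.0789). Mmp19, the MMP with the highest length-scaled level in L-TBA, was at 67.0, 64.3 and 67.4 CPM there and at 62.7, 62.1, 38.5 and 52.2 CPM in H-TBA. The groups did not overlap, but the H-TBA libraries were widely spread and the gene was not called (-0.30 ± 0.14, adjusted p = 0.149). In the GENCODE M21 models 22.3% of its exon bases overlap Tmem198b on the other strand, which had 399 counts in H-TBA and 259 in L-TBA, against 2425 and 2166 for Mmp19.

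Of 3 tested inhibitors 2 rose. Timp2 (ENSMUSG00000017466), the TIMP with the highest level per kb of exon in both groups, was at 63.7, 39.5 and 51.2 CPM in L-TBA and at 118, 131, 153 and 138 CPM in H-TBA. Timp3 (ENSMUSG00000020044), the inhibitor that binds to the matrix and also blocks ADAM17 and the aggrecan-cleaving ADAMTS enzymes, was at 66.7, 43.1 and 50.7 CPM and at 115, 125, 142 and 129 CPM. In both genes L-TBA 1 was the highest L-TBA library and H-TBA 3 the highest H-TBA library, and the groups were far apart. Timp2 rose by 1.39 ± 0.15 (adjusted p = 0.000209) and Timp3 by 1.25 ± 0.14 (adjusted p = 0.000239) on the log2 scale. Of the Timp3 exon bases, 21.3% overlap Syn3 on the other strand, which had 41 counts in H-TBA and 26 in L-TBA, against 5846 and 1758 for Timp3.

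Timp1 (ENSMUSG00000001131), the inducible TIMP that is widely used as a marker of active fibrosis, did not rise with them. It was at 7.69, 6.91 and 4.31 CPM in L-TBA and at 0.841, 3.52, 5.29 and 2.10 CPM in H-TBA. H-TBA 3 lay above L-TBA 3, so the groups overlapped, and the H-TBA libraries varied with a coefficient of variation of 65.0%. The log2 fold change was -1.09 ± 0.42 and did not pass (adjusted p = 0.080). It passed as lower on leaving out H-TBA 3 (-1.56, adjusted p = 0.0193) and with DESeq2, limma-voom or no filter (adjusted p = 0.0435, 0.0297 and 0.0318); over the alternatives it spanned 0.0193 to 0.237.

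Timp4, an inhibitor mainly of heart and fat tissue, did not pass the filter. Its reads numbered 26 in H-TBA, of which H-TBA 1 and 2 held 10 each, and 2 in L-TBA. The ratio after scaling by library size was 9.32 (exact 95% interval by Clopper and Pearson, covering counting error alone, 2.33 to 81.1). In the fit with no filter it passed at a log2 fold change of 3.03 (adjusted p = 0.0294).

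Levels can be compared between genes only per length of exon, and on that scale the order of the genes differed between the groups. In L-TBA the highest means were 18.8 CPM per kb for Mmp19, 13.2 for Timp2, 12.3 for Mmp14 and 10.7 for Mmp15, with Mmp7 at 6.89. In H-TBA Mmp7 stood first at 63.9 CPM per kb, followed by Timp2 at 34.7, Timp3 at 15.7 and Mmp2 at 15.3. Neighbours in that order, such as Timp3, Mmp2, Mmp19 and Mmp14 in H-TBA, did not differ beyond their spread. Mmp7 made up 8.91% to 11.4% of the summed MMP level in the L-TBA libraries and 36.0% to 51.2% in the H-TBA libraries. The share of Mmp12 was between 9.10% and 11.2% in L-TBA and in H-TBA between 2.13% and 3.998%. The Mmp12 gene model holds 7237 exon bases, and a model with a shorter exon length would give a higher length-scaled level.

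**Figure D4:**
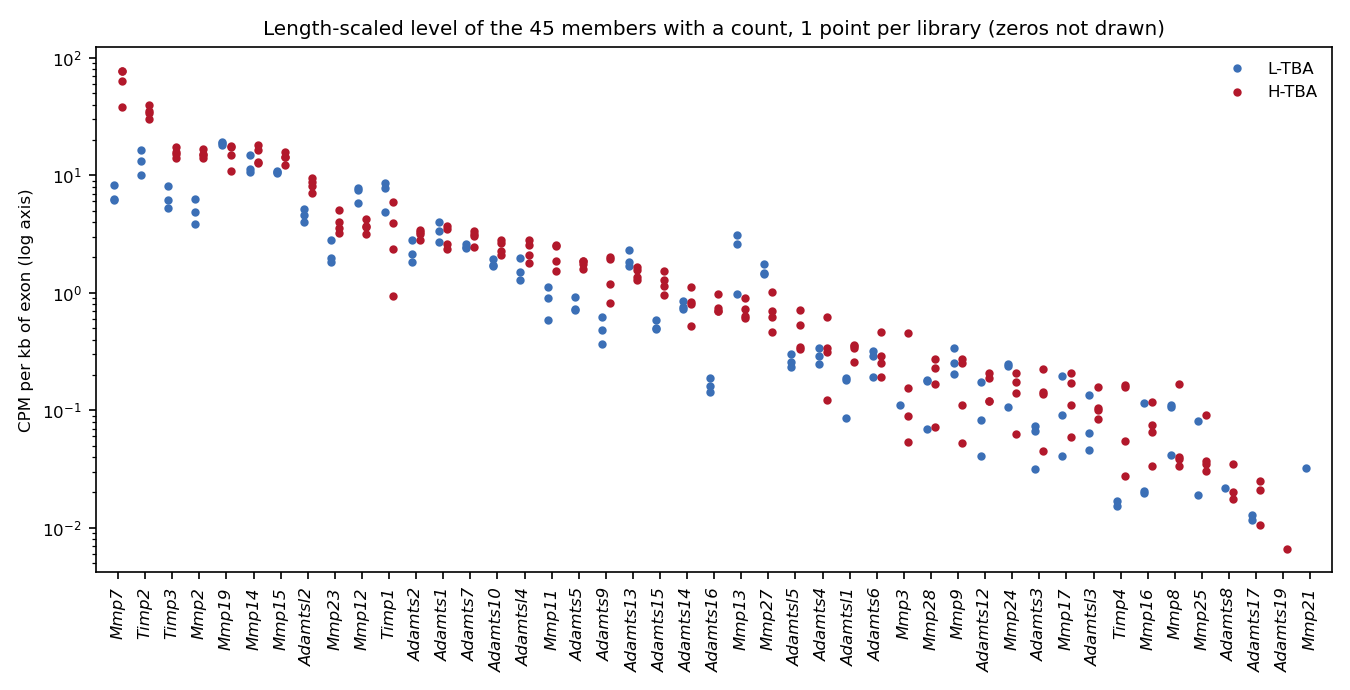
Level in CPM per kb of exon (y axis, log scale) of the 45 genes with a count, ordered by their H-TBA mean, with 1 point per L-TBA (blue) or H-TBA (red) library and libraries at 0 not drawn. Mmp7 leads in H-TBA at a mean of 63.9, while in L-TBA Mmp19 leads at 18.8.

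The summed MMP level per kb lay between 64.2 and 72.7 in L-TBA and between 106 and 153 in H-TBA, and the summed TIMP level between 23.2 and 33.2 and between 45.5 and 62.7. The ratio of summed MMP to summed TIMP overlapped between the groups, at 2.19, 2.96 and 2.65 in L-TBA and 2.33, 2.53, 2.44 and 2.80 in H-TBA. This ratio includes Mmp7, which made up 8.91% to 11.4% of the MMP sum in L-TBA and 36.0% to 51.2% in H-TBA. It therefore does not describe the other MMPs, and a ratio without Mmp7 was not calculated. Transcript sums are not a measure of protease activity. Within the TIMPs the share of Timp1 in the length-scaled sum was 20.02% to 33.5% in L-TBA and 2.08% to 9.50% in H-TBA. The ratio of Timp2 to Mmp2 CPM, of interest because TIMP2 takes part in the activation of pro-MMP2, was 2.98, 3.01 and 3.10 in L-TBA and 2.49, 2.53, 2.70 and 2.74 in H-TBA. The ratio of Mmp14 to Mmp2 was 2.98 to 6.79 in L-TBA and 1.49 to 1.95 in H-TBA. Neither ratio overlapped between the groups, and the ratios and sums were not tested.

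Markers of the cell types named for Mmp7, Mmp2 and Mmp12 were counted beside them. Of 12 bile duct markers 11 rose and 0 fell, with a summed level between 523 and 811 CPM in L-TBA and between 1091 and 2075 CPM in H-TBA, led by Spp1 and Cdh1. Most of this sum was Spp1, at a mean of 513 CPM of 670 CPM in L-TBA and 1195 CPM of 1683 CPM in H-TBA. Of 14 stellate cell and fibroblast markers 8 rose and 1 fell, with sums of 436 to 635 CPM and 620 to 765 CPM, led by Dcn and Lum; 2 fell on leaving out H-TBA 1. Of 12 macrophage markers 1 rose and 2 fell, with sums of 399 to 532 CPM and 339 to 410 CPM, led by Csf1r and Cd9. The share of macrophage markers called was near the 23.9% over all tested genes. On leaving out L-TBA 2 the macrophage count was 4 lower, and on leaving out L-TBA 3 it was 1 lower. None of the markers in these lists was at 0 in all libraries. The part of cell numbers in the changes of Mmp7, Mmp2 and Mmp12 was not tested.

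Ratios to single markers, which were chosen after the values had been seen, set these genes beside their cell types and were not tested. Mmp7 over Krt19, a keratin of bile duct cells, was 1.10, 1.46 and 1.20 in L-TBA and 1.61, 1.35, 1.22 and 1.49 in H-TBA, and the groups overlapped. Mmp7 over Epcam, another duct marker, was 0.449 to 0.553 in L-TBA and 0.813 to 1.15 in H-TBA, without overlap. Against the mean log2 (CPM + 0.5) of all 12 duct markers, Mmp7 was at -0.51 ± 0.14 (SD, n = 3) in L-TBA and at 0.90 ± 0.11 (SD, n = 4) in H-TBA. Mmp2 over Pdgfra, a receptor of mesenchymal cells, was 1.13, 0.924 and 0.917 in L-TBA and 1.177, 1.06, 1.20 and 1.17 in H-TBA, with overlap. Over Lum, a proteoglycan of fibroblasts, Mmp2 was 0.333 to 0.416 in L-TBA and 0.474 to 0.636 in H-TBA, without overlap. Against the mean log2 (CPM + 0.5) of all 14 stellate cell and fibroblast markers, Mmp2 was at 0.06 ± 0.15 (SD, n = 3) in L-TBA and at 1.01 ± 0.16 (SD, n = 4) in H-TBA, also without overlap. That mean pools markers that went both ways. Their log2 fold changes ran from -0.95 for Reln to 1.82 for Cd34, with 12 of 14 above 0, beside 1.60 for Mmp2. Measured in the same way against 12 macrophage markers, Mmp12 overlapped between the groups, at 1.05 ± 0.64 (SD, n = 3) and 0.52 ± 0.29 (SD, n = 4). The values were 1.28, 1.55 and 0.327 in L-TBA 1 to 3 and 0.0862 to 0.693 in H-TBA, so only L-TBA 3 overlapped. The macrophage marker mean itself was highest in L-TBA 3, at 4.50, 4.27 and 5.09 in L-TBA 1 to 3 and 4.095 to 4.48 in H-TBA. It also pools markers that went both ways. Their log2 fold changes ran from -2.35 for Timd4 to 0.61 for Cd9, with 2 of 12 above 0, beside -0.93 for Mmp12. Mmp12 over Cd68, a lysosomal protein of macrophages, was 1.48, 1.75 and 1.42 in L-TBA and 1.08, 1.13, 0.956 and 0.797 in H-TBA, without overlap. Over Csf1r, the receptor that macrophages need to survive, the same gene overlapped, at 0.411 to 0.703 in L-TBA and 0.243 to 0.472 in H-TBA.

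**Figure D5:**
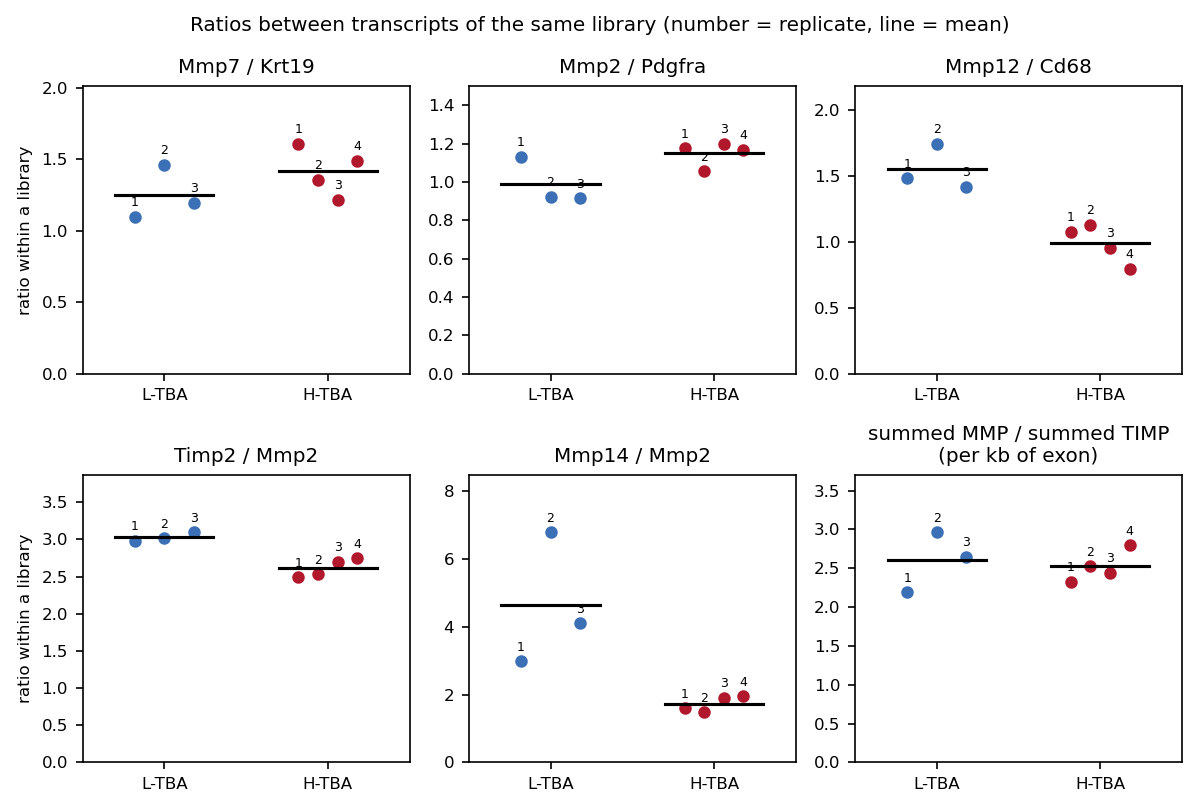
Ratios between transcripts of the same library (y axis, starting at 0) for L-TBA (blue) and H-TBA (red), with the replicate number beside each point and a line at the group mean; the lower right panel uses CPM per kb of exon. Mmp7 over Krt19, Mmp2 over Pdgfra and summed MMP over summed TIMP overlap between the groups, and Mmp12 over Cd68, Timp2 over Mmp2 and Mmp14 over Mmp2 do not; Mmp2 over Lum, which is not plotted, does not overlap either (0.333 to 0.416 and 0.474 to 0.636).

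Of the proteoglycan-cleaving ADAMTS enzymes, which cut versican and aggrecan, 3 of 5 tested genes rose. Adamts5 (ENSMUSG00000022894), an aggrecanase, was at 10.02, 7.81 and 7.71 CPM in L-TBA and at 19.99, 20.2, 19.0 and 17.3 CPM in H-TBA, a change of 1.16 ± 0.13 on the log2 scale (adjusted p = 0.00024). Both groups were tight and well apart. Adamts9, which also acts in protein transport, rose from 9.33, 5.47 and 7.31 CPM to 12.4, 17.9, 29.1 and 30.2 CPM, at 1.61 ± 0.30 (adjusted p = 0.00329). H-TBA 1 was near the L-TBA libraries and H-TBA 3 and 4 were highest, as they were for Mmp7. Adamts15 rose from 5.48 ± 0.566 CPM (SD, n = 3) to 12.7 ± 2.48 CPM (SD, n = 4), at 1.21 ± 0.18 (adjusted p = 0.000926).

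Adamts1, an inducible gene, was at 17.7, 14.4 and 21.3 CPM in L-TBA and at 13.9, 12.4, 19.8 and 18.6 CPM in H-TBA. The groups overlapped, and it was not called (-0.13 ± 0.18, adjusted p = 0.64); its sign turned with library totals, at 0.04, and on leaving out L-TBA 3, at 0.01. Adamts4, the other main aggrecanase, stood at 1.40 CPM in L-TBA and 1.68 CPM in H-TBA and was not called.

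Among the procollagen N-proteinases, which trim the ends of fibrillar procollagens, Adamts2 was at 26.5, 17.0 and 20.03 CPM in L-TBA and at 30.5, 32.0, 29.8 and 26.5 CPM in H-TBA. L-TBA 1 lay just below H-TBA 4. It rose by 0.48 ± 0.14 on the log2 scale (adjusted p = 0.0263), and the call was lost on leaving out H-TBA 2 or 3 or L-TBA 2 or 3 (adjusted p = 0.0675, 0.0505, 0.103 and 0.0903; all alternatives spanned 0.0052 to 0.103). Adamts14, its paralog, was at 0.08 ± 0.24 and not called, and its sign turned on leaving out H-TBA 3, at -0.11. Adamts3, the third of them, had 34 counts in H-TBA and 10 in L-TBA, a ratio of 2.44 (95% interval 1.178 to 5.53), and did not pass the filter.

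Adamts16 (ENSMUSG00000049538), a protease of kidney and gonads that cleaves fibronectin, had the largest rise of the ADAMTS genes. It was at 1.30, 0.987 and 1.10 CPM in L-TBA and at 4.76, 5.08, 4.80 and 6.72 CPM in H-TBA, with H-TBA 4 above the 3 similar libraries. The log2 fold change was 2.23 ± 0.24 (adjusted p = 0.000208). Adamts10, a protease of the fibrillin microfibrils, was at 14.8 ± 1.13 CPM (SD, n = 3) and 20.3 ± 2.84 CPM (SD, n = 4) and rose by 0.46 ± 0.13 (adjusted p = 0.021). The call of Adamts10 was lost on leaving out H-TBA 3 or 4 or L-TBA 2 or 3 (adjusted p = 0.0545, 0.0613, 0.0774 and 0.0747; all alternatives spanned 0.013 to 0.109).

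Adamts13, which cuts von Willebrand factor and is made by hepatic stellate cells, was at 8.38, 9.06 and 11.4 CPM in L-TBA and at 7.66, 6.35, 8.13 and 6.72 CPM in H-TBA. The groups did not overlap, but the gene was not called (-0.41 ± 0.16, adjusted p = 0.0854). Its substrate gene Vwf was at 8.65 ± 1.86 CPM (SD, n = 3) and 12.5 ± 2.70 CPM (SD, n = 4) and was not called either (0.53 ± 0.20, adjusted p = 0.0759); Vwf passed as higher on leaving out H-TBA 1 (adjusted p = 0.0151), with limma-voom and with library totals. Adamts7, Adamts6 and Adamts12 were not called, at 0.27, 0.17 and 0.66 on the log2 scale. Adamts7 passed as higher on leaving out H-TBA 2 (adjusted p = 0.0384).

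ADAMTS-like genes were higher where they were called. Adamtsl2, a liver-expressed partner of fibrillin and of the latent TGF-beta binding protein, was the most abundant of them, at 41.4, 32.1 and 36.8 CPM in L-TBA and at 70.6, 56.0, 65.1 and 75.4 CPM in H-TBA. It rose by 0.86 ± 0.12 (adjusted p = 0.000644). Adamtsl1 rose from 1.95 ± 0.738 CPM (SD, n = 3) to 4.20 ± 0.597 CPM (SD, n = 4), at 1.09 ± 0.27 (adjusted p = 0.0132). Adamtsl4 and Adamtsl5 did not pass, at 0.54 ± 0.20 (adjusted p = 0.0689) and 0.85 ± 0.33 (adjusted p = 0.0876). Adamtsl4 passed as higher on leaving out H-TBA 2 or L-TBA 2 (adjusted p = 0.0467 and 0.0404) and with limma-voom, and library totals raised the count to 4 of 4 tested genes. At an adjusted p of 0.01 the count was 1, since Adamtsl1 no longer passed.

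The 18 genes that did not pass the filter had between 0 and 60 counts over the 7 libraries. Besides the 4 silent genes of the cluster, Adamts18 and Adamts20 were at 0. Adamts19 and Mmp21 had 1 count each, Adamts8 5 and Adamts17 7. Mmp16, Mmp25, Mmp28 and Adamtsl3 had ratios between 1.32 and 1.49 with intervals that included 1.

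Other genes that activate or restrain these proteases were taken from lists. Over all tested genes 23.9% were called, and each list count below is to be read beside this share. Of 8 genes of the plasminogen system, whose product plasmin activates several pro-MMPs, 2 rose and 0 fell, which is near it. Plat, the tissue plasminogen activator, rose from 7.42 ± 1.01 CPM (SD, n = 3) to 18.3 ± 4.01 CPM (SD, n = 4), at 1.30 ± 0.19 (adjusted p = 0.000807). Serpine2, a protease inhibitor of the matrix, rose by 0.93 ± 0.17. Plau, the urokinase gene, was at -0.05 ± 0.27 and Plg, the plasminogen gene, at -0.15 ± 0.11, and neither was called (adjusted p = 0.926 and 0.36). The sign of Plau turned on leaving out H-TBA 1 and on leaving out L-TBA 1, at 0.12 and 0.31. On leaving out L-TBA 3, 1 gene of this list fell.

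Proprotein convertases remove the propeptide of furin-activated MMPs and of ADAMTS enzymes. Of 4, 0 rose and 1 fell, a share near the 23.9% called over all tested genes. Pcsk6 went from 190 ± 10.1 CPM (SD, n = 3) to 118 ± 10.1 CPM (SD, n = 4), at -0.69 ± 0.09 (adjusted p = 0.000545). Furin was at -0.16 ± 0.09 and was not called (adjusted p = 0.22). Of 15 tested ADAM proteases and other regulators 4 rose and 1 fell. Reck, a membrane-anchored MMP inhibitor, rose by 1.11 ± 0.21 (adjusted p = 0.00318), and Adam15, a disintegrin protease, by 1.02 ± 0.17. Adam9 fell by 0.30 on the log2 scale (adjusted p = 0.0112), and with library totals it was at -0.14 and not called (adjusted p = 0.148), which left 0 genes of this list lower. The count of 4 was 2 on leaving out H-TBA 3 or 4 or L-TBA 2. Of 8 cathepsin genes 1 rose and 3 fell: Ctsk, a collagen-degrading cathepsin, rose by 1.17 ± 0.18 (adjusted p = 0.00108), Ctsz fell by 0.57 and Ctsb by 0.38. Ctsb lost its call on leaving out H-TBA 2 or L-TBA 1 or 2 (adjusted p = 0.0509, 0.0654 and 0.0824), and 1 cathepsin fell on leaving out L-TBA 2. With library totals Ctsb was at -0.23 and not called (adjusted p = 0.0814), and again 1 cathepsin fell.

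Of 22 matrix genes whose proteins these enzymes cut or organise, 12 rose and 1 fell. The median log2 fold change was 0.58, against 0.00 over all tested genes. Fn1, the most abundant of the list, was the 1 that fell, from 1266 to 921 CPM on average (-0.46 ± 0.11, adjusted p = 0.0102). Vcan, the versican gene, had the lowest log2 fold change of the list and was not called (-1.08 ± 0.39, adjusted p = 0.0667). Its levels were low, at 1.56 ± 0.599 CPM (SD, n = 3) in L-TBA and 0.734 ± 0.286 CPM (SD, n = 4) in H-TBA. The summed level of the list overlapped, at 1871 to 2414 CPM in L-TBA and 1860 to 2340 CPM in H-TBA. The called genes with the smallest adjusted p were Col6a1, a chain of microfibrillar collagen VI (0.88 ± 0.13, adjusted p = 0.0009), Ltbp2, a microfibril-associated protein (2.30 ± 0.36, adjusted p = 0.00123), and the fibrillin gene Fbn2 (2.62 ± 0.43, adjusted p = 0.00154). Col1a1, the main fibrillar collagen, was not called (0.11 ± 0.28, adjusted p = 0.823). It passed as higher on leaving out L-TBA 1 (adjusted p = 0.0208), and its sign turned on leaving out H-TBA 3, L-TBA 2 or L-TBA 3. The count of 12 was 7 on leaving out H-TBA 3 and 6 on leaving out L-TBA 2 or 3. The count of 1 was 2 on leaving out L-TBA 3 and 0 on leaving out L-TBA 2.

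Of 12 tested genes for AP-1 subunits, related factors and inducing cytokines 3 rose and 0 fell. That share was near the 23.9% called over all tested genes. The AP-1 subunit gene Fosl1 did not pass the filter. It was between 0.605 and 1.08 CPM in L-TBA and between 0 and 0.163 CPM in H-TBA. In the fit with no filter 2 genes of the list rose and 1 fell. Tgfb2, a ligand of the TGF-beta family, rose by 2.09 ± 0.41 (adjusted p = 0.00409), and the AP-1 subunit genes Junb and Jund rose by 0.66 ± 0.18 and 0.29 ± 0.09 (adjusted p = 0.0246 and 0.0371). The count of 3 was 5 on leaving out H-TBA 1 and 1 on leaving out H-TBA 3 or 4 or L-TBA 1. Junb lost its call on leaving out H-TBA 3 or 4 or L-TBA 1 (adjusted p = 0.0539, 0.0517 and 0.0582), and with robust dispersion (adjusted p = 0.0571). Jund lost its call on leaving out H-TBA 3 or 4 or any 1 L-TBA library (adjusted p from 0.0671 to 0.122), and with no filter (adjusted p = 0.0529).

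Markers of other cells that can express these genes gave the following values. Of 7 sinusoidal endothelial markers 6 fell and 0 rose, with sums of 212 to 234 CPM in L-TBA and 147 to 169 CPM in H-TBA, led by Stab1 and Stab2. Of 7 vascular endothelial markers 1 rose and 0 fell, or 3 rose on leaving out H-TBA 1, with sums of 117 to 166 CPM and 136 to 178 CPM, led by Eng and Kdr. Of 4 tested mesothelial markers 3 rose, with sums of 7.60 to 11.1 CPM and 19.9 to 24.8 CPM, led by Gpm6a and Wt1. The 9 neutrophil markers summed to 11.5 to 12.03 CPM and 7.01 to 8.90 CPM, with Ly6g at 0 and 1 of 3 tested markers lower. The neutrophil count was 2 lower on leaving out H-TBA 2 and 0 on leaving out H-TBA 3 or L-TBA 2 or 3. Of 8 hepatocyte markers 2 rose and 3 fell, led by Alb and Apoa1. The 7 markers of pancreas, muscle and fat summed to between 10.02 and 17.9 CPM in L-TBA and between 12.1 and 16.6 CPM in H-TBA, nearly all from Cela1, the only one tested and not called, and Cpa1 and Prss1 were at 0.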

How the data were processed

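The deposited table holds the authors' raw counts for each Ensembl gene, whole and not normalized. CASAVA, TopHat2 2.0.11, DESeq2 1.18.1 and build mm9 appear in the submitters' processing notes, with no roles. How reads were counted, with which strand setting and annotation, was not given in the sources used here, so overlapping genes may share counts. Of 37620 identifiers, 32897 matched a symbol. Exon lengths and overlaps came from GENCODE M21 (GRCm38), promoter sequences and gene order from RefSeq GRCm38.p6.

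Genes were filtered with filterByExpr (minimum count 10, minimum total 15), scaled by TMM and tested for a difference between the groups with edgeR 4.0.16 in its quasi-likelihood form (R 4.3.3). The model held the group alone, and p-values were adjusted by Benjamini and Hochberg over 15249 genes, with calls at 0.05. Unless another tool is named, each adjusted p is from this fit. The fold change and the F statistic gave the standard errors. The fit was tested on simulated data. Alternatives were DESeq2 1.42.0, limma-voom (limma 3.58.1) with quality weights, DESeq2 size factors, library totals, scaling without the 20 most abundant genes, an unfiltered fit, a stricter filter, robust dispersion, a block for the replicate number, an adjusted p of 0.01, and leaving out each library. No 2 libraries of a group agreed within sampling noise (smallest chi-square per degree of freedom 5.29). Named genes were all called genes, Mmp7, Mmp2, Mmp12, Mmp14, Adamts13 and the TIMPs whatever their result, up to 2 others per class, and up to 3 called genes per pathway list with Plg, Plau, Furin, Col1a1 and Vwf. The ratios to single markers and the values of Fosl1, Fn1, Vcan, Spp1, Reln, Cd34, Timd4 and Cd9 lie outside that rule. The genes and lists were chosen with earlier results of these data known.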

Additional observations from a re-analysis of the deposited data

Results flagged for a closer look

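Within the 4 H-TBA libraries, 1 value stood apart from the others by Dixon's criterion. Adamts16 was at 6.72 CPM in H-TBA 4, while the other H-TBA libraries lay between 4.76 and 5.08 CPM. The criterion is met by chance in about 1 of 20 groups, and 33 genes were examined. Groups of 3, such as L-TBA, were not examined. The Adamts16 call held without H-TBA replicate 4.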

How the results depend on the processing

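The count of genes called higher was 15 and stayed between 11 and 18 over the 17 alternatives, and the count called lower was 3 and stayed between 2 and 4. Leaving out a library gave 12 to 16 higher and 2 to 4 lower genes. Of the 18 called genes, 12 kept their direction and call in every alternative; the others were Adamts10, Adamts2, Adamtsl1, Mmp15, Mmp23 and Mmp27. Library totals moved the median log2 fold change of all genes from 0.00 to 0.16 and changed the split of all calls from 2003 higher and 1635 lower to 3117 and 832. Signs turned for genes that were not called. With library totals Adamts1 was at 0.036, Plg at 0.0059 and Plau at 0.12. On leaving out each library, log2 fold changes ran from -0.26 to 0.011 for Adamts1, -0.11 to 0.25 for Adamts14, -0.16 to 0.54 for Adamts4, -0.13 to 0.33 for Adamts6, -0.078 to 1.07 for Mmp17, -0.23 to 0.31 for Plau and -0.12 to 0.67 for Col1a1. The cause of these changes was not tested.

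The labels number the libraries of both groups, but the numbers did not pair them: deviations of same-numbered libraries correlated at -0.103, -0.0589 and -0.0627 across genes, and no library correlated best with its own number. With the replicate number as a block, 11 genes were called higher and 3 lower, and Adamts10, Adamtsl1, Mmp15 and Mmp23 were not called (adjusted p = 0.109, 0.0739, 0.0655 and 0.0789), nor were Adam9, Ctsb and Jund (0.0882, 0.109 and 0.174); the signs of Adamts4 (-0.20) and Adamts6 (-0.12) turned under the block. Over all genes the block gave 1166 higher and 754 lower calls. Depth limits the genes under about 1 CPM, of which Mmp9, Mmp17 and Mmp24 had standard errors between 0.44 and 0.53.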
